A study of Homo sapiens with 15 samples.

Results

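The GADD45 family was followed in HCT116 cells, an epithelial line from a human colorectal carcinoma. The family was taken by symbol from the deposited raw counts, where its 3 genes, GADD45A, GADD45B and GADD45G, are 3 of the 730 endogenous genes of the panel. The family was chosen by its symbols but with earlier results of these data known, among them the levels of GADD45B under TQ and of GADD45A under 5-FU. The values of the 3 genes against control under these 2 treatments are therefore given as a description, without a test.

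GADD45 genes code for small acidic proteins without enzymatic activity that act by binding others. They bind PCNA and the p21 protein, they interfere with the CDK1 and cyclin B1 complex at entry into mitosis, and they activate the kinase MAP3K4, which feeds the p38 and JNK stress kinases. GADD45A is a textbook p53 target after DNA damage, GADD45B is known as an early response gene to TGF-beta, NF-κB and other stress signals, and GADD45G is the member named for cytokine response.

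Cells stayed untreated as control or were exposed for 24 h to 40 µM TQ, 15 µM 5-FU, Combi (35 µM TQ with 35 µM 5-FU) or 35 µM SARB, and each of the 5 groups had 3 samples that the labels call biological replicates. TQ is thymoquinone, a quinone from black cumin seed, 5-FU is 5-fluorouracil, a pyrimidine analogue that blocks thymidylate synthase, and SARB is a hybrid in which TQ and 5-FU are joined through an ester. Relative to the single treatments, Combi had a lower TQ dose and a higher 5-FU dose, so the only treatments matched in dose were SARB and Combi. Transcripts were counted on the NanoString PanCancer Pathways panel, in which each transcript binds a color-coded probe that is counted without amplification. Levels are scaled counts, that is raw counts divided by 1 factor per sample so that the 40 housekeeping genes have an equal geometric mean in all 15 samples.

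Total endogenous counts per sample ran from 135017 in TQ to 607782 in Combi. The epithelial genes CDH1, ITGA6, MET, LAMB3 and SFN were above background in 15 of 15 samples, whereas the blood and stromal genes IL2RA, PDGFRA, PDGFRB and COL1A2 were above it in 0 of 15, with COL1A1 in 13 and CD40 in 15. Background means the mean plus 2 SD of the 8 negative probes of the same sample. The samples were counted in 3 runs, as the names of the scanner files show. Run 1 held every SARB, TQ and 5-FU sample with control replicate 1, run 2 held control replicates 2 and 3 and Combi replicate 1, and run 3 held Combi replicates 2 and 3, so that no run held both SARB and Combi.

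RefSeq promoter entries (GRCh38.p14) were at hand for GADD45B and GADD45G. They are shown because GADD45B had the largest fold above control of the family and GADD45G the member that stayed near background. Each run of letters is the 250 bases before the annotated start of the gene on the plus strand, chr19:2475877-2476126 for GADD45B and chr9:89604762-89605011 for GADD45G. Capitals mark matches to 3 motifs. The E-box, bound by MYC and related factors, was searched as CACGTG. The box bound by the factor NF-Y was searched by its letters CCAAT alone. The TATA box, which positions RNA polymerase II, was searched as TATAA.
GADD45B: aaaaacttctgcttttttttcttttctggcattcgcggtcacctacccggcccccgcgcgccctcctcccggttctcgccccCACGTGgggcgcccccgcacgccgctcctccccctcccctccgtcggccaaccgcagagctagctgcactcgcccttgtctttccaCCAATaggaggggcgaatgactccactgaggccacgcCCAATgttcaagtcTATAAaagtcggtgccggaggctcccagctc
GADD45G: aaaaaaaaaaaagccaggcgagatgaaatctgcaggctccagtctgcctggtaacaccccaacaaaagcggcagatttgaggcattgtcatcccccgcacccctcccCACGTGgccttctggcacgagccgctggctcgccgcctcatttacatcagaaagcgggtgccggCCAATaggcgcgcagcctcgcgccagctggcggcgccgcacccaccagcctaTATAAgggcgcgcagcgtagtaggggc
Both stretches hold the same 3 kinds of element in the same order. The E-box lies at -168 to -163 in GADD45B and at -143 to -138 in GADD45G, counted from -1 as the base before the start. GADD45B has CCAAT boxes at -82 to -78 and at -45 to -41 and a TATA box at -31 to -27, and GADD45G has a CCAAT box at -79 to -75 and a TATA box at -27 to -23. Among 35116 promoters of the same length searched on both strands, 6.34% held the E-box, 32% the CCAAT box and 18.9% the TATA box. Neither stretch held a GC box (GGGCGG, in 42.6% of promoters), an AP-1 site (TGANTCA, 6.57%), a cAMP response element (TGACGTCA, 1.65%), a heat shock element core (GAANNTTC, 5.78%) or a p53 decamer (5.57%). The matches did not overlap each other, and GC content was 63.2% in GADD45B and 61.6% in GADD45G.

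GADD45A, the DNA damage member, was higher in each treatment than in control and was highest in Combi. The 3 control samples gave 621, 656 and 625 scaled counts. TQ gave 977, 987 and 800, SARB gave 1162, 860 and 1202, and 5-FU gave 1474, 1342 and 1145. Combi gave 1714, 1565 and 1568. No treated sample reached down to the controls, whose spread was the smallest of the 5 groups. Of all 730 genes, 6.16% had every TQ sample above every control sample, with 16.3% for 5-FU, 19.3% for Combi and 13.2% for SARB. The group means were 634 ± 19.2 in control, 921 ± 105 in TQ, 1075 ± 187 in SARB, 1320.5 ± 165 in 5-FU and 1616 ± 85.5 in Combi (SD, n = 3 each). In this order the samples of TQ and SARB overlapped, as did those of SARB and 5-FU, whereas control and TQ, and 5-FU and Combi, did not.

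GADD45B, the early response member, followed another order, with the TQ samples far above all others. TQ gave 774, 585 and 662 scaled counts for GADD45B, while control gave 209, 135 and 141. The 3 samples of 5-FU gave 214, 251 and 274, those of Combi 233, 210 and 259, and those of SARB 222, 213 and 193. Every TQ sample was thus above every sample of the other 4 groups, which lay close together. Means were 162 ± 41.4 in control, 209 ± 14.5 in SARB, 234 ± 24.8 in Combi, 246 ± 30.4 in 5-FU and 673 ± 94.8 in TQ (SD, n = 3 each). Neighbours in this order overlapped except for 5-FU and TQ, and the lowest Combi sample (209.73) stood barely above the highest control sample (209.27). Control replicate 1, the only control of run 1, gave this highest value, and both control samples of run 2 lay below all treated samples.

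GADD45G was hardly detected. Its raw counts were 3, 16 and 10 in control, 5, 19 and 3 in TQ, 14, 33 and 28 in Combi, 6, 4 and 6 in 5-FU and 1, 5 and 5 in SARB. Only TQ replicate 2 and Combi replicates 2 and 3 exceeded the background of their sample, and none of the control, 5-FU and SARB samples did. The scaled means of GADD45G were 15.4 ± 9.58 in control, 9.69 ± 3.97 in TQ, 16.7 ± 0.745 in Combi, 7.00 ± 1.54 in 5-FU and 3.39 ± 3.00 in SARB (SD, n = 3 each), and neighbours overlapped when the groups were ordered by level.

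**Figure D1:**
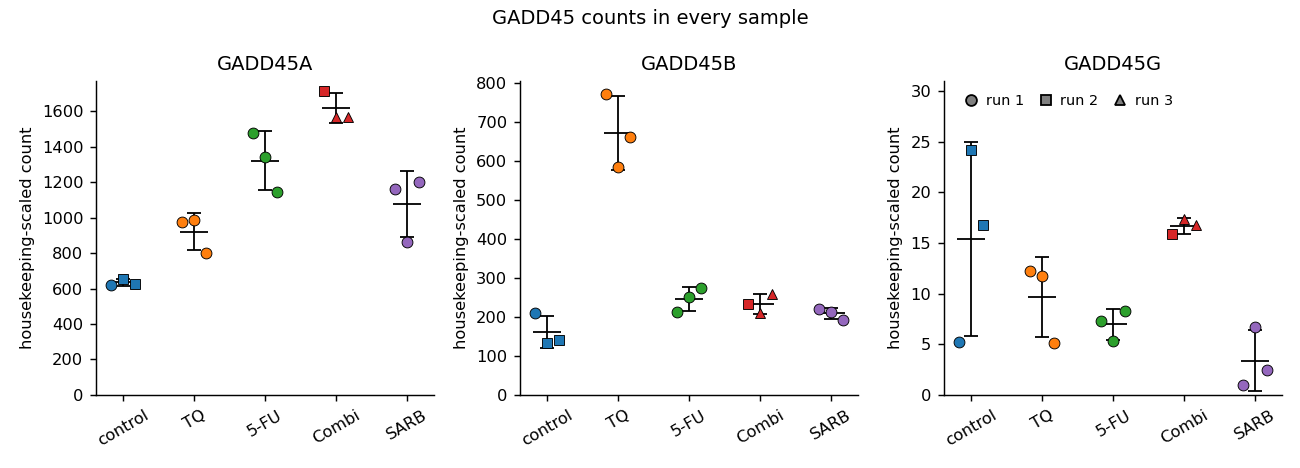
Housekeeping-scaled counts (y axis, linear, from 0) of GADD45A, GADD45B and GADD45G in the 15 samples by group (x axis); each symbol is a sample, its shape gives the run, and bars show the group mean ± SD (n = 3). GADD45A is lowest in control and highest in Combi, GADD45B is far higher in TQ (585 to 774) than elsewhere, and GADD45G stays below 25 scaled counts throughout.

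The single treatments differed in which member stood out. In TQ, GADD45B was 4.15-fold above control (log2 fold change 2.05, SE 0.17) and ranked 5th of 730 genes from the top, whereas GADD45A was 1.45-fold above control (0.54, SE 0.14) and ranked 33rd. In 5-FU, GADD45A was 2.08-fold above control (1.06, SE 0.13) with rank 40, and GADD45B was 1.53-fold above control (0.61, SE 0.17) with rank 82. For GADD45G the fitted log2 differences were -0.65 (SE 0.57) in TQ and -1.14 (SE 0.59) in 5-FU, on counts near background. As the family was chosen with such values known, nothing is read from them against the background of the panel, where 3.42% of genes passed upward and 21.6% downward under TQ, and 10.1% upward and 10.1% downward under 5-FU. A gene is called higher or lower where edgeR's quasi-likelihood test gave an adjusted p (Benjamini-Hochberg, 730 genes) of 0.05 or less with a fold of 1.5 or more.

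In Combi versus control GADD45A rose, GADD45B was higher without being called, and GADD45G did not pass the test. GADD45A had a log2 fold change of 1.35 (SE 0.13, edgeR adjusted p = 8.30e-08), or 2.55-fold, with rank 32 of 730 and all 3 Combi samples above all control samples. GADD45B had a log2 fold change of 0.54 (SE 0.17, edgeR adjusted p = 0.0176), and its fold of 1.45 stayed under 1.5. For GADD45G the log2 fold change was 0.10 (SE 0.51, edgeR adjusted p = 0.936). In Combi 13.6% of all genes were called higher and 6.58% lower, and 19.3% had all Combi samples above all control samples, against 1 called gene of the family and 2 that did not overlap. Without control replicate 1, GADD45B in Combi would be called (0.76, edgeR adjusted p = 0.00148), and likewise without Combi replicate 2 (0.61, edgeR adjusted p = 0.0182), with TMM normalization (0.62, edgeR adjusted p = 0.0125), which centers the bulk of all genes, with run as a block (0.76, edgeR adjusted p = 0.0209) and with background subtraction (0.76, edgeR adjusted p = 0.00474).

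In SARB versus control GADD45A again rose, by a log2 fold change of 0.76 (SE 0.13, edgeR adjusted p = 0.000118), or 1.70-fold, and ranked 49th of 730. GADD45B was not called (0.37, SE 0.17, 95% interval 0.02 to 0.73, edgeR adjusted p = 0.0852), and 1 control sample lay within the range of the SARB samples. Across the panel, SARB had 8.63% of genes called higher and 20% lower, and 13.2% lay above all control samples in all SARB samples. GADD45G met the rule for a lower gene (log2 -2.32, SE 0.63, edgeR adjusted p = 0.00606). All 3 samples of both groups were under background, however, so this value is not read as a change. The negative probes moved the same way, with scaled means of 16.8 ± 4.61 in control and 8.81 ± 6.78 in SARB (SD, n = 3 each), a log2 difference of -0.93, and their part in the GADD45G value was not tested. The GADD45G call was lost in 6 alternatives, among them run as a block (-0.76, edgeR adjusted p = 0.693), background subtraction (-0.90, edgeR adjusted p = 0.469) and leaving out control replicate 2 (-1.82, edgeR adjusted p = 0.0600).

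Whether GADD45B was called in SARB varied with the control samples kept and with the processing. Within run 1 its SARB mean of 209 equalled that of control replicate 1, with a log2 ratio of -0.0015, while without control replicate 1 the log2 fold change was 0.60 (edgeR adjusted p = 0.00879). TMM normalization gave 0.71 for GADD45B in SARB (edgeR adjusted p = 0.00444). DESeq2 with its own size factors gave 0.72 (DESeq2 adjusted p = 0.00268) and background subtraction 0.60 (edgeR adjusted p = 0.0249). A fit with run as a block gave -0.01 (edgeR adjusted p = 0.990). GADD45A was less dependent on the run, with a within-run log2 ratio to control of 0.56 in TQ, 1.08 in 5-FU and 0.78 in SARB, each against control replicate 1, and 1.42 for Combi replicate 1 against control replicates 2 and 3. The same ratios of GADD45B were 1.68 in TQ, 0.23 in 5-FU and 0.76 for Combi replicate 1, so the TQ samples stood above control in run 1 as well. Combi replicates 2 and 3 had no control in their run, and they averaged 1566 scaled counts of GADD45A and 235 of GADD45B.

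**Figure D2:**
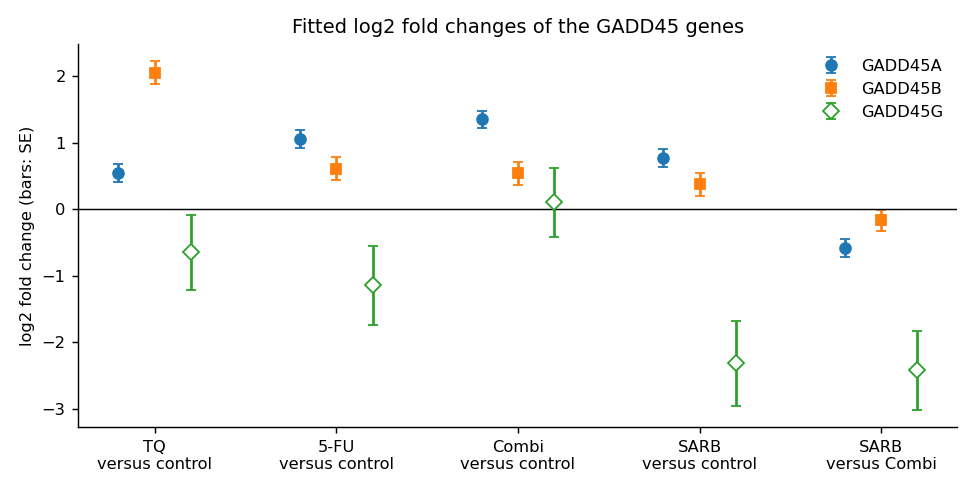
Fitted log2 fold changes (y axis) of the GADD45 genes in 5 comparisons (x axis), with bars of ± 1 SE; open diamonds are GADD45G, whose counts lay near background. GADD45B in TQ (2.05) and GADD45A in Combi (1.35) are the largest positive values, and GADD45B lies between 0.37 and 0.61 in the other 3 treatments.

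SARB and Combi were compared directly, at 35 µM SARB against 35 µM of each drug in Combi, to ask whether joining TQ and 5-FU in 1 molecule changed the response of the family. GADD45A was lower in SARB than in Combi in all samples on housekeeping-scaled counts. The log2 fold change was -0.58 (SE 0.13, 95% interval -0.85 to -0.31, edgeR adjusted p = 0.00323), and the fold of 1.499 fell just short of 1.5. For GADD45B the difference was -0.16 (SE 0.16, 95% interval -0.49 to 0.16, edgeR adjusted p = 0.483), which leaves room for a modest difference either way. GADD45G was called lower in SARB (-2.42, SE 0.60, edgeR adjusted p = 0.00632), with 0 of 3 SARB samples and 2 of 3 Combi samples above background, but this call was lost with run as a block (-0.39, SE 1.25, edgeR adjusted p = 0.997), with background subtraction and in both limma fits. Of all 730 genes, 0.959% were called higher and 11.2% lower in SARB than in Combi, and in 28.9% every SARB sample lay below every Combi sample, as for GADD45A. With TMM normalization the difference of GADD45A shrank to -0.30 (edgeR adjusted p = 0.294) and that of GADD45B turned to 0.10. On TMM-scaled counts of GADD45A, SARB replicate 3 (1497) lay above every Combi sample (1429 to 1468). Run and treatment cannot be told apart here except through the controls, and with run as a block the difference of GADD45A was -0.62 (SE 0.26, edgeR adjusted p = 0.997).

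Combi stands beside its components at other doses, so these values are set side by side only. GADD45B averaged 673 scaled counts at 40 µM TQ, 246 at 15 µM 5-FU and 234 in Combi with 35 µM of each, so the Combi level lay 2.86-fold below that of TQ (log2 difference -1.52, SE 0.15) and near that of 5-FU (-0.07, SE 0.16). The log2 fold change of GADD45B in Combi differed from the sum of the 2 single ones by -2.13 (SE 0.23), and by -2.99 to -1.15 over the alternatives run. As the TQ value was known when the family was chosen, this difference is a description and no test is read from it. With run as a block, GADD45B was still lower in Combi than in TQ (-0.92, SE 0.30). Its difference between Combi and 5-FU was less stable, from -0.24 to 0.64 over the alternatives, and no run held both groups. For GADD45A the Combi level was above that of TQ (0.81, SE 0.13) and of 5-FU (0.29, SE 0.13), and it differed from the sum by -0.25 (SE 0.19), likewise without a test. These 3 values of GADD45A depended on the scaling. TMM gave 0.43 (SE 0.19) against TQ, 0.17 (SE 0.18) against 5-FU and -0.83 (SE 0.27) against the sum, DESeq2 with its own size factors gave 0.33, 0.10 and -0.94, and the difference from the sum ran from -1.31 to -0.16 over all alternatives. On TMM-scaled counts the samples of Combi and 5-FU overlapped. SARB, at its own dose, differed from TQ by -1.68 in GADD45B (SE 0.16), and from 5-FU by -0.29 in GADD45A (SE 0.13), which turned to 0.25 with scaling by the positive probes.

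**Figure D3:**
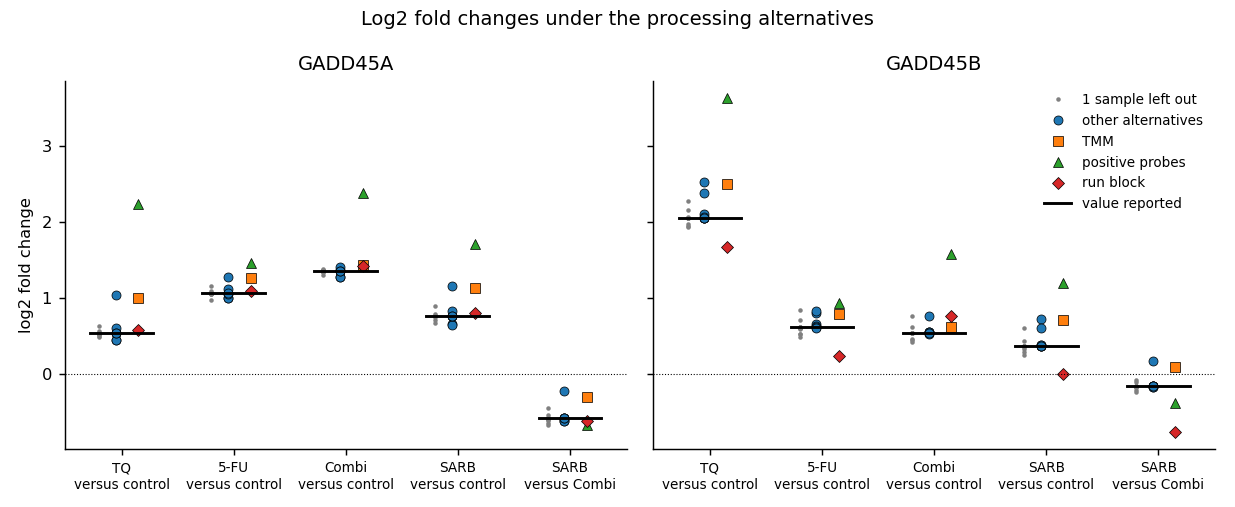
Log2 fold changes (y axis) of GADD45A and GADD45B in 5 comparisons (x axis) as reported (black lines) and under 26 other settings, 15 of which leave out 1 sample each (grey points); squares are TMM, triangles scaling by the positive probes and diamonds run as a block. GADD45A stays above 0 against control throughout, while GADD45B in SARB moves between -0.01 and 1.19.

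All these fold changes are relative to the housekeeping genes. On that scale the 730 genes had a median log2 fold change of -0.10 in Combi, -0.27 in 5-FU, -0.41 in SARB and -0.47 in TQ, and of -0.32 between SARB and Combi. Each positive value of GADD45A and GADD45B against control thus lay above the median of its comparison, and on the TMM scale, where those medians were -0.07 to -0.02, GADD45A reached 1.43 in Combi, 1.26 in 5-FU, 1.13 in SARB and 1.00 in TQ. TMM also moved the balance of called genes, from 63 higher and 146 lower to 120 and 68 in SARB, from 25 and 158 to 79 and 44 under TQ, from 74 and 74 to 104 and 41 under 5-FU, and from 7 and 82 to 39 and 54 between SARB and Combi.

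The 5 genes whose profiles lay nearest to GADD45A included 3 TRAIL receptors. Likeness was the root mean square difference of log2 scaled counts over the 15 samples, each gene taken relative to its control mean, among 513 other genes with a mean raw count of at least 20. TNFRSF10D, a decoy receptor, came first for GADD45A with 0.243 log2 units, followed by the death receptor TNFRSF10A (0.249), the growth factor FGF18 (0.259), the repair factor ERCC6 (0.297) and the death receptor TNFRSF10B (0.306). The 5 genes were spread most widely in TQ, where the mean log2 level relative to control was 0.89 for TNFRSF10D, 0.53 for GADD45A and -0.03 for TNFRSF10B. In SARB all 5 lay above GADD45A (0.75), from 0.82 for ERCC6 to 1.05 for FGF18 and 1.15 for TNFRSF10A, and the latter 2 parted from it most there.

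GADD45B had 1 close neighbour, HSPA2, which codes for a member of the 70-kDa heat shock protein family, at 0.295 log2 units. HSPA2 had mean log2 levels relative to control of 2.15 in TQ, 0.60 in 5-FU, 0.16 in Combi and only 0.05 in SARB, beside 2.08, 0.63, 0.56 and 0.40 for GADD45B. The next genes were farther away, with MAP3K14, a kinase of the NF-κB pathway, at 0.537, the NF-κB cofactor NFKBIZ at 0.637, and the G1 cyclins CCNE1 at 0.640 and CCND1 at 0.647. These differences are independent of the scaling, because a factor shared by all genes of a sample cancels. All 15 points of a gene come from the same libraries, so likeness is a description, and GADD45G was too low for it.

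**Figure D4:**
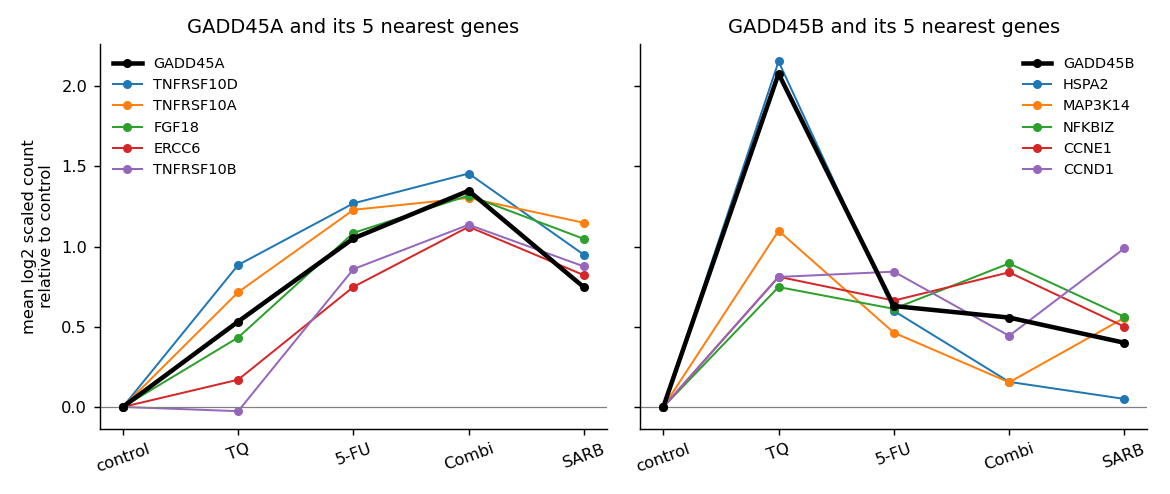
Mean log2 scaled count relative to control (y axis) in the 5 groups (x axis) for GADD45A (left, black) and GADD45B (right, black) with the 5 nearest genes of each in color. HSPA2 follows the TQ peak of GADD45B (2.15 against 2.08), and the genes near GADD45A peak in Combi.

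Binding partners of GADD45 proteins and the stress kinases they act on had 11 genes on the panel, and their calls were at or near the rate of the panel. Combi had 2 called higher (18.2%, beside 13.6% of all genes) and 1 lower (9.09% beside 6.58%), and SARB had 1 higher (9.09% beside 8.63%) and 3 lower (27.3% beside 20%). The list medians were -0.28 and -0.24, beside -0.10 and -0.41 over all genes. MAP3K4, the kinase that GADD45 proteins bind, is not on the panel. CDKN1A, which codes for the p21 protein, rose from 1004 ± 304 scaled counts to 6441 ± 533 in Combi and to 5260 ± 947 in SARB (log2 fold changes 2.68 and 2.39). CCNB1, the cyclin of the CDK1 complex, fell from 4141 ± 326 to 1338 ± 113 in Combi and 1271 ± 106 in SARB (SD, n = 3; -1.63 and -1.71). PCNA, the replication clamp, rose in Combi (0.72, edgeR adjusted p = 0.00218). In SARB, MAPK9, which codes for the kinase JNK2, fell (-0.78, edgeR adjusted p = 0.000116), and MAP2K6, a p38 activator, was called lower (-1.75) at a mean raw count of 6.3. With TMM or with run as a block only 1 gene of the list was called lower in SARB. The higher calls under these 2 settings ranged from 1 to 2 in Combi and from 1 to 2 in SARB. In TQ, where GADD45B was highest, edgeR called none of the 11 higher (beside 3.42% of all genes). At an unadjusted p under 0.05, 0 were higher and 6 lower. CDKN1A (-0.95) and PCNA (-0.70) were called lower in TQ (18.2%, beside 21.6%), with 0 lower calls under TMM and 1 with run as a block. With 5-FU, CDKN1A was higher (2.18) and CCNB1 lower (-1.26), 9.09% each way beside 10.1% of all genes. Between SARB and Combi, edgeR called 0 of the 11, beside 0.959% of all genes higher and 11.2% lower. At an unadjusted p under 0.05, 1 was higher and 1 lower.

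Most p53-induced genes were called higher in the 3 treatments that contain 5-FU or its hybrid, where GADD45A also had its 3 highest levels. Of 19 on the panel, 14 (73.7%) were called higher with 5-FU, 14 with Combi and 14 with SARB, beside 10.1%, 13.6% and 8.63% of all genes. TQ had 5 higher (26.3%, beside 3.42% of all genes) and 2 lower (10.5%, beside 21.6%). In those 3 treatments edgeR called 0 lower, with 0, 1 and 1 lower in the same order at an unadjusted p under 0.05. Their median log2 fold changes were 1.27, 1.30, 1.30 and -0.01 for 5-FU, Combi, SARB and TQ, beside -0.27, -0.10, -0.41 and -0.47 over all genes. SFN, which codes for the cell cycle inhibitor 14-3-3 sigma, reached 2.60 in Combi and 2.65 in SARB, and MDM2, the ubiquitin ligase that restrains p53, 2.29 and 2.14. The death receptor gene FAS reached 2.47 in Combi, and the decoy receptor gene TNFRSF10C 2.55 in SARB. TMM normalization raised the count of higher p53-induced genes in TQ from 5 to 9. Only IGFBP3, a binder of insulin-like growth factors, was called between SARB and Combi (-1.48, at a mean raw count of 17.1). The list thus had 5.26% called lower, beside 11.2% of all genes, and 0 higher, beside 0.959%. The list was written with earlier results known and holds genes that the study itself named on these samples, so its direction is not independent evidence.

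MYC, a known repressor of GADD45A, had log2 fold changes of -0.58 in Combi (edgeR adjusted p = 0.000976) and -0.50 in SARB (edgeR adjusted p = 0.00333). Its values were -0.27 in 5-FU (edgeR adjusted p = 0.108) and 0.51 in TQ (edgeR adjusted p = 0.00492). None reached a fold of 1.5 relative to the housekeeping genes. On that scale the median of all genes was -0.10, -0.41, -0.27 and -0.47 in the same order, so these values depend on the scaling.

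Of 24 known upstream regulators of GADD45 genes on the panel, Combi had 7 called higher and 1 lower (29.2% and 4.17%, beside 13.6% and 6.58% of all genes). SARB had 3 and 4 (12.5% and 16.7%, beside 8.63% and 20%), and 5-FU had 3 and 3 (12.5% each, beside 10.1% each), both near the panel. TQ also had 3 and 3 (12.5% each), beside 3.42% of all genes higher and 21.6% lower. With TMM or with run as a block the higher count in TQ ranged from 1 to 7, and the lower count was 0. The AP-1 gene FOS showed the widest range, with 126 ± 19.2 scaled counts in control, 821 ± 72.2 in TQ, 618 ± 146 in Combi, 97.6 ± 15.2 in 5-FU and 84.6 ± 18.1 in SARB (SD, n = 3 each). FOS was thus high in TQ and Combi, whereas GADD45B was high in TQ alone. JUN, its AP-1 partner, rose by 1.75 in Combi and 1.30 in SARB, and the NF-κB subunit RELA (1.43) and the DNA damage kinase ATM (1.16) rose in Combi. STAT3 (0.92) and TGFB1 (0.77) rose in SARB, and the checkpoint kinase CHEK1 fell there (-0.76). ATM, RELA, NFKBIA, the NF-κB inhibitor, and FOS were called lower in SARB than in Combi, named after their values were seen. These 4 were 16.7% of the list, beside 11.2% of all genes, and 0 were called higher, beside 0.959%. That lower count ranged from 1 to 3 with TMM or with run as a block, and the higher one from 0 to 1. With TMM normalization 8 regulators were called higher and 0 lower in SARB, so the lower calls of this list depended on the scaling.

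**Figure D5:**
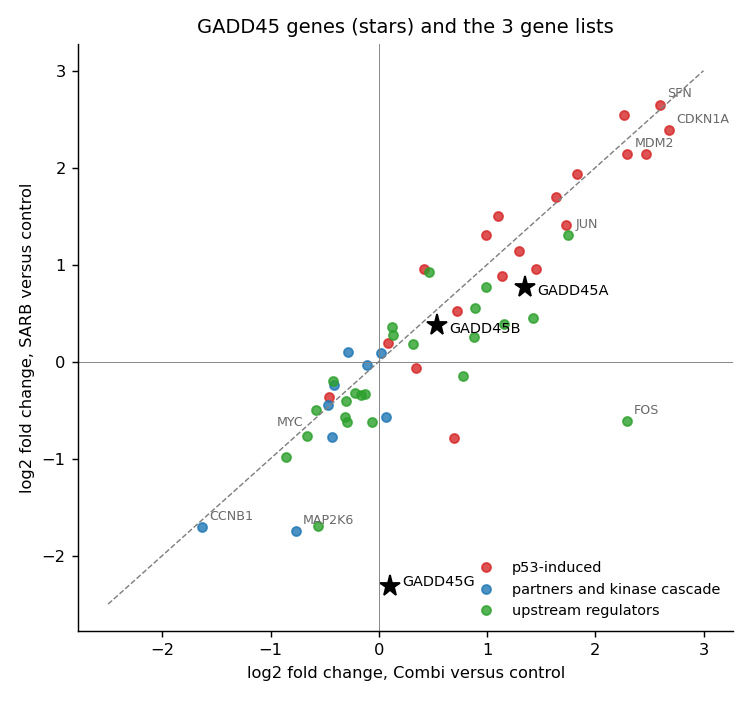
Log2 fold changes against control in Combi (x axis) and SARB (y axis) of the genes of the 3 lists (dots; red p53-induced, blue partners and kinase cascade, green upstream regulators; a gene on the p53 list and another is red) and of the GADD45 genes (stars), with a dashed line of equal values. The comparisons share the control samples. GADD45A (1.35 in Combi and 0.76 in SARB) lies below the line, and FOS (2.29 and -0.61) lies farthest below it. The star of GADD45G rests on counts near background.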

How the data were processed

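Counts of 770 genes in 15 samples of HCT116 cells (50 ng RNA each) came from the nCounter PanCancer Pathways panel. The deposited raw counts are counts per probe, without normalization. The deposited normalized signal was made by the authors in nSolver 3.0 with the geometric mean of the housekeeping genes, its values never fall under 1, and it served only in alternatives. Another deposited table, of the authors' fold changes and p-values, was not used.

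Here raw counts were scaled to the 40 housekeeping genes and fitted in edgeR 4.0.16 (R 4.3.3), all 5 groups in 1 quasi-likelihood model, with Benjamini-Hochberg adjustment over 730 genes. Alternatives used TMM, positive probes, DESeq2 1.42.0, limma 3.58.1 on log2 of the deposited signal plus 1 or 10, a minimum mean count of 20, background subtraction, run or replicate blocks, only the groups compared, and samples left out in turn. The scripts were tested on simulated data. Promoters came from RefSeq tables, which held 2 of the 3 members.

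The members and gene lists were chosen with earlier results of these data known. Besides the members, genes were named as the 5 nearest profiles of each member with a mean raw count of at least 20, up to 4 called genes of largest change per list in Combi and in SARB, and MAP3K4, MYC and CDKN1A; some genes of these rules are not reported here. Replicate samples all differed beyond sampling noise. Total counts set the precision of each value, and 15 samples limit that of the tests.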

Additional observations from a re-analysis of the deposited data

How the results depend on the processing

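Against control, GADD45A kept its direction in all 26 alternatives for each treatment. Scaling by the positive probes alone moved the panel median (log2) to 0.92 in Combi, 0.28 in SARB, 1.12 in TQ and 0.04 in 5-FU, and with it GADD45A to 2.38, 1.70, 2.24 and 1.45, where the calls in Combi (adjusted p = 0.0520) and SARB (0.304) were lost. It also gave 3.63 in TQ and 0.93 in 5-FU for GADD45B, and 0.99 in TQ and -1.85 in SARB for GADD45G. TMM gave 1.00 in TQ and 1.26 in 5-FU for GADD45A, and for GADD45B 2.49 in TQ, 0.62 in Combi, 0.71 in SARB and 0.10 in SARB against Combi. DESeq2 with its own size factors gave 1.04 and 1.27 for GADD45A in TQ and 5-FU, and 2.52 in TQ, 0.72 in SARB and 0.17 in SARB against Combi for GADD45B. Subtracting the negative probe mean plus 2 SD gave -0.59 for GADD45A in SARB against Combi, 2.37 in TQ, 0.76 in Combi and 0.60 in SARB for GADD45B, and 1.13 in TQ, -0.90 in SARB and -1.49 in SARB against Combi for GADD45G. In limma with a pseudocount of 1 or 10, GADD45A in SARB against Combi was called (-0.62 and -0.62), and GADD45G was not, neither in SARB (-1.11 and -0.36) nor against Combi (-1.89 and -0.66), with 0.38 in TQ at a pseudocount of 1. With run as a block, GADD45B was 0.76 in Combi, -0.01 (-0.0059) in SARB, 1.67 in TQ and 0.23 in 5-FU, and GADD45G -0.37 in Combi, -0.76 in SARB, 0.91 in TQ, 0.42 in 5-FU and -0.39 in SARB against Combi. The cause of these changes was not tested.

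With 1 sample left out in turn, GADD45A in SARB against Combi ranged from -0.67 to -0.45 and was called without Combi replicate 2 or 3 or SARB replicate 1 or 3. GADD45B ranged from 0.42 to 0.76 in Combi and from 0.25 to 0.60 in SARB, and GADD45G from -0.30 (without control replicate 1) to 0.59 in Combi and from -2.96 to -1.82 in SARB. Same-numbered samples of different groups did not deviate together (30 correlations, -0.67 to 0.39, 9 over 0.1). Differently numbered ones gave 60 correlations from -0.52 to 0.65, with 21 over 0.1. No sign of pairing by replicate number was thus seen, but 3 samples per group cannot exclude it. A fit with the replicate block changed no call (GADD45A 1.35 in Combi and 0.76 in SARB, GADD45B 0.55 and 0.38). Genes called lower varied most, from 1 to 67 in Combi, 4 to 243 in SARB, 0 to 208 in TQ, 1 to 104 in 5-FU and 1 to 148 in SARB against Combi, and those called higher from 46 to 144, 8 to 120, 10 to 85, 4 to 106 and 0 to 48. GADD45G had no adjusted p from DESeq2 in Combi, nor against Combi with its own size factors, and no value with a minimum mean count of 20. Its mean raw count of 10.5 limits what it can show.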
